A study of Mus musculus with 12 samples.

Results

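The mouse mitochondrial genome is annotated with 37 genes, and all 37 were found among the 54532 genes of the deposited expression table by their names, which begin with mt-, and their chromosome, MT. They are 13 protein genes, 2 ribosomal RNA (rRNA) genes and 22 transfer RNA (tRNA) genes. Levels were measured by RNA sequencing of mouse brain tissue in 12 libraries, 3 in each of 4 groups. Treated mice were injected with 5-aminolevulinic acid (5-ALA) at 20 mg/kg, lit 30 min later with a 635 nm laser at 20 J/cm2, and their brain tissue was taken 1.5 h, 12 h or 48 h after that. This is photodynamic therapy: 5-ALA is turned into protoporphyrin IX by the heme pathway, which begins and ends inside mitochondria, and light makes that pigment produce reactive oxygen. Controls bear the title PBS and the treatment entry untreated, with no word on an injection or on light. Every mouse was perfused with 0.9% NaCl according to the protocol. The strain is given as BALB/c in some entries and as C57BL/6 in others. The labels name no brain region and do not say whether polyadenylated RNA was selected or rRNA was removed. In a bulk sample, fewer cells of a type and less RNA per cell cannot be told apart.

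Mitochondrial DNA is a small circle that is copied into RNA from both strands as long transcripts covering many genes. The tRNAs lie between the rRNA and protein genes, and cutting them out releases the separate rRNAs and mRNAs, most of which then receive a short poly(A) tail. The protein genes encode subunits of complexes I, III and IV of the respiratory chain and of the ATP synthase, and the rRNAs and tRNAs serve the ribosomes that translate them. Neurons depend heavily on this machinery for ATP.

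Positions are on GRCm38, and all 37 genes had the same start, end and strand in the deposited table and in GENCODE release M21, whose transcripts gave the sequences below. On the MT:1-15422 stretch that holds the genes, 28 lie on the plus strand, and mt-Nd6 and 8 tRNA genes lie on the minus strand. The tRNAs shown first are those whose values the results turn on. Each is printed 5′ to 3′ in DNA letters with its anticodon in capitals: mt-Tp (proline, MT:15356-15422, minus strand), mt-Tn (asparagine, MT:5089-5159, minus strand) and mt-Tc (cysteine, MT:5192-5257, minus strand), the 3 with the highest control FPKM, then mt-Tw (tryptophan, MT:4950-5016), mt-Th (histidine, MT:11546-11612) and mt-Tl1 (leucine, MT:2676-2750), all on the plus strand.
mt-Tp: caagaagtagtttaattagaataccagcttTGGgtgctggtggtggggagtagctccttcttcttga
mt-Tn: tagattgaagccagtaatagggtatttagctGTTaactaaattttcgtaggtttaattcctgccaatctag
mt-Tc: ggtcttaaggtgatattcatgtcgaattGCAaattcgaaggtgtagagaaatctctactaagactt
mt-Tw: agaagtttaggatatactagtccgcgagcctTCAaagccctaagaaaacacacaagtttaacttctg
mt-Th: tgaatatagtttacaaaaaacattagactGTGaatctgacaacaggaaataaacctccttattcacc
mt-Tl1: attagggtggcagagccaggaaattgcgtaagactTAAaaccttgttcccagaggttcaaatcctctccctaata

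The next sequence is mt-Atp8 (MT:7766-7969, 204 bases), a small subunit of the ATP synthase and the protein gene with the lowest listed level in controls. Its last 43 bases, in capitals, are also the first bases of mt-Atp6 (MT:7927-8607), so a read there cannot be given to either gene alone.
mt-Atp8: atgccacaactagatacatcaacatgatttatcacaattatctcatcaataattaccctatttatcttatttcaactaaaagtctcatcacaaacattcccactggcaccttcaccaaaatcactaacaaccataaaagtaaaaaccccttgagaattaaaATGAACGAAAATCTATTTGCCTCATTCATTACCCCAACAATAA

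Some mitochondrial genes have copies in nuclear chromosomes, and these decide whether a short read has 1 possible origin. Along chr1:24611535-24616197, on the minus strand, 7 annotated pseudogenes follow the order of the mitochondrial genes from mt-Co1 to mt-Nd4 over 4663 bases. The aligned bases were identical for mt-Co2 and Gm28661 (681 of 681), mt-Atp6 and Gm10925 (678 of 678), mt-Co3 and Gm28437 (783 of 783), mt-Nd4l and Gm10222 (294 of 294), and the start of mt-Nd4 and Gm28439 (876 of 876). A single base differed for mt-Nd3 and Gm28438 (344 of 345 identical) and for the aligned stretch of mt-Co1 and Gm29216 (482 of 483). The remaining copies were less alike, as for mt-Nd2 and Gm13339 on chromosome 2, with 493 of 510 bases identical. Below, the first 90 bases of mt-Atp6 and mt-Nd3 and bases 772 to 861 of mt-Nd2 stand above the matching bases of the copy, and capitals mark the differences, of which mt-Atp6 has none, mt-Nd3 has 1 and mt-Nd2 has 6.
mt-Atp6: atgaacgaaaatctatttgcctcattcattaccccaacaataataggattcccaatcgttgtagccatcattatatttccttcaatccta
Gm10925: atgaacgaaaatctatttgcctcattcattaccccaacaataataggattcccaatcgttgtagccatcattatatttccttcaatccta
mt-Nd3: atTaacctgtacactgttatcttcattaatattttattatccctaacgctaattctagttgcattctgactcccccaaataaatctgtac
Gm28438: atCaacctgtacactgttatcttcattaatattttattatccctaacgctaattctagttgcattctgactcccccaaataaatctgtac
mt-Nd2: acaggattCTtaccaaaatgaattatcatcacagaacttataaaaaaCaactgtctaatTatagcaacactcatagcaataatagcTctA
Gm13339: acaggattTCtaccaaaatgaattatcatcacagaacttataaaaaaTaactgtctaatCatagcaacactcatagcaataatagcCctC

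The deposited levels split along this line. FPKM divide the fragments of a gene by its length and by the depth of the library, which allows only a rough comparison between genes of different length. Of all windows of 50 bases in a gene, 98.0% to 100% also occurred in an annotated nuclear transcript for 5 protein genes: mt-Co2, mt-Co3, mt-Atp6, mt-Nd4l and mt-Nd3. Their control means were 128 ± 43.2, 56.0 ± 25.8, 96.6 ± 53.0, 43.3 ± 24.7 and 8.83 ± 3.76 FPKM (SD, n = 3). The 7 protein genes mt-Nd1, mt-Nd2, mt-Co1, mt-Nd4, mt-Nd5, mt-Nd6 and mt-Cytb shared 0% to 62.2% of their windows and had control means of 1787 to 11103 FPKM. For mt-Nd4 the shared part was 62.2%, and for mt-Co1 it was 51.1%. The exception was mt-Atp8, which shared 0% of its 50-base windows and had 2.53 ± 0.858 FPKM in controls. With windows of 25 bases mt-Atp8 shared 11.7%, and the 7 genes shared 0% (mt-Nd1) to 69.7% (mt-Co1). Among these, mt-Nd6 and mt-Cytb shared 0% with 50 bases and 14.9% and 13.0% with 25. Between Gm10925 and Gm28661 on chromosome 1 lie 233 bases with no annotated copy, at the place where mt-Tk and mt-Atp8 stand between mt-Atp6 and mt-Co2. The 5 shared genes and mt-Atp8 were also short, at 204 to 784 bases, against 519 to 1824 bases for the 7 others. Only annotated transcripts were searched, and the part played in these levels by gene length or by reads with several origins was not tested.

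**Figure D1:**
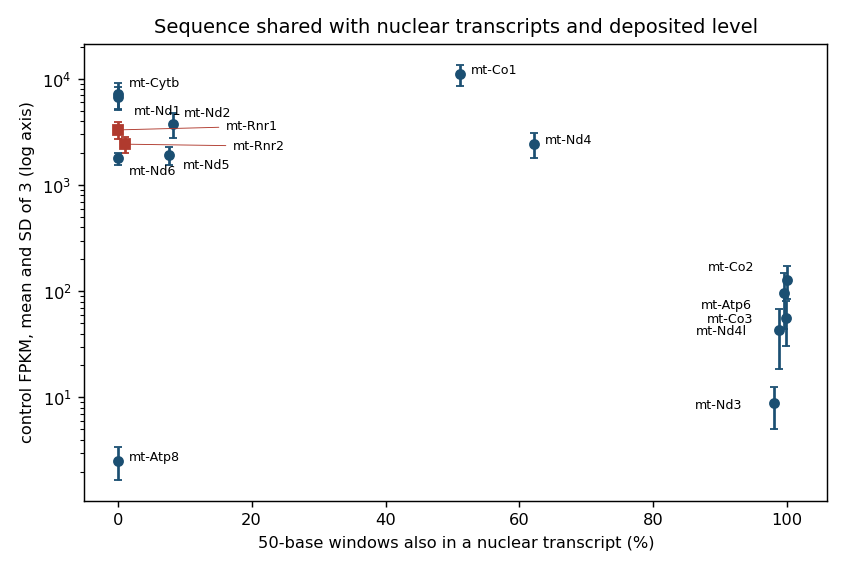
Share of 50-base windows of each rRNA (red squares) and protein gene (blue circles) that also occur in an annotated nuclear transcript (horizontal axis, %) against its control level in FPKM (vertical log axis, mean and SD of 3 libraries). The 5 genes at 98.0% or more lie at 8.83 to 128 FPKM, and mt-Atp8 lies at 2.53 FPKM with 0% shared.

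The copies themselves carried reads. Gm28661, the copy of mt-Co2, was listed at 117, 93.6 and 64.3 FPKM in control replicates 1, 2 and 4, beside 166, 138 and 81.1 FPKM for mt-Co2. In 1.5 h replicates 1, 2 and 3 it had 318, 102 and 251 FPKM, beside 379, 119 and 337 FPKM for mt-Co2. Gene and copy were thus high in the same 1.5 h libraries. Gm28438 exceeded its mitochondrial counterpart, with 98.1, 135 and 98.8 FPKM in controls against 11.8, 10.1 and 4.60 FPKM for mt-Nd3. Values of mt-Co2, mt-Atp6, mt-Co3, mt-Nd3 and mt-Nd4l are therefore given below as levels listed for those genes, whose reads can be shared with the copies.

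Reads recovered from the table numbered 15348579 to 17444654 per library. Replicates 1 and 3 of the 1.5 h group stood apart from the other 10 libraries. Across nuclear genes, the level relative to the control mean changed by -0.136 and -0.091 log2 units per doubling of gene length in these libraries, against -0.0415 to 0.00853 in the other 10. Malat1, a long RNA retained in the nucleus, was at 17.2 and 26.7 FPKM in them, against 43.1 to 63.7 FPKM in controls and 48.7 FPKM in 1.5 h replicate 2. All defining markers of neurons, astrocytes, oligodendrocytes, microglia, endothelium and choroid plexus were above 0 in every library, but their sums moved with time. In 1.5 h replicates 1, 2 and 3, oligodendrocyte markers summed to 1289, 771 and 888 FPKM and microglial markers to 125, 72.8 and 89.1 FPKM. Endothelial markers summed to 15.9, 26.8 and 15.2 FPKM there. At 12 h oligodendrocyte markers summed to 1266 to 1525 FPKM against 760 to 890 FPKM in controls, astrocyte markers to 591 to 664 against 423 to 453, endothelial markers to 47.5 to 60.1 against 24.9 to 27.7, and microglial markers to 46.5 to 49.0 against 78.2 to 84.3 FPKM. At 48 h microglial markers were at 140.1 to 146 FPKM, astrocyte markers at 679 to 912 and endothelial markers at 46.1 to 69.8, all above the controls. Oligodendrocyte markers were then at 492 to 1155 FPKM, and neuronal markers at 640 to 944 against 875 to 1030 FPKM in controls. The 5 red cell genes summed to 365 FPKM in 1.5 h replicate 1, against 0.781 to 30.1 FPKM in controls and 1.94 to 56.5 FPKM in the other 8 treated libraries. The 6 leukocyte genes summed to 17.5 FPKM in the same library and to 13.6 to 23.6 FPKM at 12 h, against at most 0.539 FPKM in controls. Sums for skeletal muscle, with 4 of 5 genes below 1 FPKM in every library, were 18.5 and 13.4 FPKM in 1.5 h replicates 1 and 3 and 4.58 to 7.34 FPKM in the other 10 libraries, and those for meninges and fibroblasts ran from 0.666 to 6.997 FPKM. Markers of choroid plexus were 6.89, 2.83 and 442 FPKM in the 1.5 h libraries and 424 to 668 FPKM in controls. They were 298 to 715 FPKM at 12 h and 991, 32.6 and 129 FPKM in 48 h replicates 1, 3 and 4. The part of these differences in the mitochondrial values was not tested. No label ties a library to an animal of its own, so the p-values below cover only the spread between these libraries, which may be technical.

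In control brain the mitochondrial genome took 5.77%, 6.02% and 4.16% of all reads in replicates 1, 2 and 4. These shares, like those below, count only reads listed for the mitochondrial genes. Reads of shared sequence can be listed for the nuclear copies instead. Among the protein genes without a near-complete nuclear copy, mt-Co1, the catalytic core of complex IV, had the highest level at 11103 ± 2488 FPKM. It was followed by mt-Cytb, the mitochondrial subunit of complex III, at 7165 ± 1984 FPKM and by mt-Nd1, which forms part of the ubiquinone channel of complex I, at 6748 ± 1695 FPKM, and these neighbours overlapped in range. The other complex I genes without a near-complete nuclear copy were mt-Nd2 at 3781 ± 1010, mt-Nd4 at 2447 ± 659, mt-Nd5 at 1921 ± 365 and mt-Nd6 at 1787 ± 228 FPKM. Since mt-Nd6 lies opposite the other protein genes and the strand setting of the counting is not given in the sources used here, its reads cannot be told apart from antisense RNA of that stretch. The small-subunit rRNA, mt-Rnr1, stood at 3308 ± 617 FPKM and the large-subunit rRNA, mt-Rnr2, at 2428 ± 436 FPKM.

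**Figure D2:**
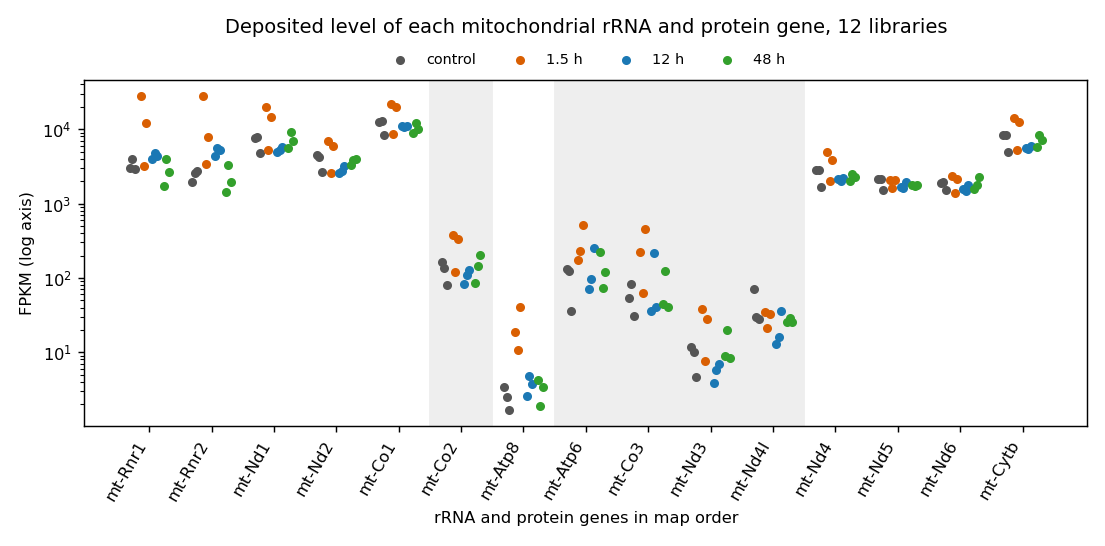
FPKM (vertical log axis) of the 2 rRNA and 13 protein genes in map order in each of the 12 libraries, coloured by group. Grey bands mark genes with 98.0% or more of their 50-base windows in a nuclear transcript. In the 1.5 h libraries mt-Rnr2 ran from 3379 to 28090 FPKM and mt-Nd5 from 1600 to 2087 FPKM.

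The tRNA genes spanned a wide range. In controls mt-Tp stood at 1015 ± 127 FPKM, mt-Tc at 359 ± 29.0 and mt-Tn at 313 ± 38.3, while the next, mt-Te (glutamate), was at 65.2 ± 26.2 FPKM. Of the 22, 16 passed the filter on low values (above 0.5 FPKM in at least 3 of the 12 libraries) and 6 did not. Among those 6, mt-Tf, mt-Td and mt-Tk had no read in any library. A single read in all 12 libraries was found for mt-Ts1 and for mt-Tg, and mt-Tr had 3. A count of 0 allows up to 3 reads, which is 2.28 to 3.80 FPKM for these genes depending on gene and library, for counting error only. Apart from mt-Tf (MT:1-68), these tRNAs lie between mt-Co1 and mt-Nd4l (MT:6870-9875), the stretch of the genome that the copy on chromosome 1 covers. No tRNA gene that passed the filter lies there. Reads on the tRNA genes can also come from uncut transcripts, which these counts do not separate.

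The earliest time tested was 1.5 h after light. Mitochondrial RNA took 12.4%, 4.16% and 9.14% of the reads in 1.5 h replicates 1, 2 and 3, so replicates 1 and 3 lay above every control and replicate 2 lay at the level of the lowest control. The rRNA genes stood out most: 5.51%, 0.831% and 2.18% of reads at 1.5 h, against 0.616%, 0.823% and 0.762% in controls. Protein genes took 6.85%, 3.32% and 6.92%, against 5.14%, 5.18% and 3.39%. The tRNA genes took 0.0608%, 0.0104% and 0.0271%, against 0.0141%, 0.0151% and 0.0124%. Replicate 2 lay outside the control range in the rRNA share by a small margin above and in the other shares by a small margin below. No test was made on these sums.

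**Figure D3:**
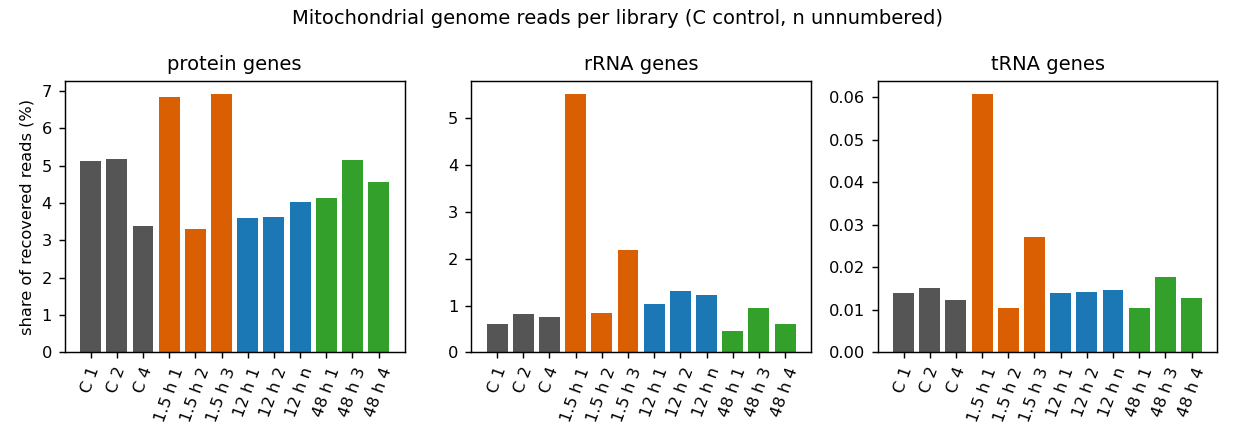
Share of recovered reads (%, each axis from 0) taken by the protein, rRNA and tRNA genes of the mitochondrial genome in each library; C is control, n the unnumbered 12 h library. The rRNA share was 5.51% in 1.5 h replicate 1 and 0.448% to 2.18% in the other 11 libraries.

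The rRNA levels differed widely between the 1.5 h libraries. The large-subunit rRNA mt-Rnr2 was at 28090, 3379 and 7833 FPKM in 1.5 h replicates 1, 2 and 3 and at 1930, 2617 and 2738 FPKM in controls. All 3 libraries were above all controls, yet the replicates ranged from 1.39 to 11.6 times the control mean. Its log2 change on the log2(FPKM + 1) scale was 1.92 ± 0.65 (SE), with an adjusted p of 0.102 (limma, Benjamini-Hochberg over all 17664 genes tested). For mt-Rnr1 the values were 28139, 3241 and 12114 FPKM against 3005, 4018 and 2900 FPKM, and replicate 2 lay among the controls. The log2 change of mt-Rnr1 was 1.66 ± 0.67 (adjusted p = 0.127). Neither rRNA passed the false discovery rate (FDR) of 0.05 used here.

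Among complex I genes the position of a library depended on the gene. For mt-Nd1, values were 19657, 5186 and 14420 FPKM at 1.5 h and 7563, 7882 and 4799 FPKM in controls, so replicates 1 and 3 were above and replicate 2 was within the control range. By contrast mt-Nd5, at the other end of the map, had 2087, 1600 and 2081 FPKM against 2126, 2136 and 1499 FPKM, all within the control range. The log2 changes were 0.79 ± 0.54 for mt-Nd1 and 0.01 ± 0.27 for mt-Nd5 (limma adjusted p = 0.324 and 0.987). The level of mt-Nd6 was 2349, 1384 and 2156 FPKM against 1885, 1950 and 1527 FPKM. Over all 12 libraries mt-Nd5 and mt-Nd6 varied least of the 21 members with at least 20 reads in every library, with coefficients of variation of 12.5% and 17.9%, whereas mt-Rnr1 and mt-Rnr2 had 118% and 128%. In 1.5 h replicate 1, mt-Nd2 stood at 1.85 times, mt-Nd4 at 2.03 times and mt-Nd5 at 1.09 times their control means.

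Complexes III and IV followed the same libraries. Values of mt-Cytb were 14175, 5250 and 12497 FPKM at 1.5 h against 8353, 8266 and 4875 FPKM in controls, and those of mt-Co1 were 21932, 8643 and 19664 against 12317, 12751 and 8241 FPKM. Both genes were above all controls in replicates 1 and 3 only. Their log2 changes were 0.49 ± 0.49 and 0.51 ± 0.52 (limma adjusted p = 0.497 and 0.506). The level listed for mt-Co3 was 223, 62.7 and 460 FPKM against 54.4, 82.6 and 31.1 FPKM, with a log2 change of 1.82 ± 0.81 (adjusted p = 0.151). For mt-Co2 the change was 1.01 ± 0.46 (adjusted p = 0.158).

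Of the ATP synthase genes, mt-Atp8 was the member that rose at 1.5 h. It was listed at 18.6, 10.8 and 41.0 FPKM in replicates 1, 2 and 3 against 3.398, 2.50 and 1.68 FPKM in controls, from 36 to 117 reads against 6 to 12. Every 1.5 h library was above every control, replicate 2 included. The log2 change was 2.62 ± 0.40 with an adjusted p of 0.0209 (limma). The call was lost without control replicate 1, 2 or 4 (adjusted p = 0.0887, 0.0958 and 0.0905) and without 1.5 h replicate 1 (0.0663), while the log2 change stayed at 2.44 to 2.80. With 1.5 h replicate 2 alone in its group it was 1.77 (adjusted p = 0.192). The neighbour mt-Atp6, which shares the 43 bases shown above, was listed at 173, 229 and 513 FPKM against 131, 123 and 35.6 FPKM, again without overlap, with a log2 change of 1.70 ± 0.64 (adjusted p = 0.113).

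The abundant tRNAs mt-Tp, mt-Tn and mt-Tc were high in 1.5 h replicate 1. For mt-Tn the values were 2878, 306 and 822 FPKM at 1.5 h and 287, 357 and 294 FPKM in controls. For mt-Tc they were 2353, 315 and 838 FPKM against 330, 388 and 360 FPKM, and for mt-Tp 6008, 716 and 2239 FPKM against 1089, 1088 and 868 FPKM. All of them were above the controls in replicates 1 and 3 and within or below them in replicate 2. Their log2 changes were 1.53 ± 0.63, 1.25 ± 0.58 and 1.07 ± 0.59 (limma adjusted p = 0.131, 0.163 and 0.226). A different pattern was seen for mt-Th, which was at 3.69, 1.83 and 8.53 FPKM against 18.1, 15.2 and 8.54 FPKM, or 2 to 8 reads against 10 to 21, with a log2 change of -1.52 ± 0.40 (adjusted p = 0.0873). The highest 1.5 h value of mt-Th nearly equalled the lowest control. For mt-Tw the values were 66.4, 32.9 and 66.1 FPKM against 21.6, 28.8 and 29.9 FPKM, all above the controls. Its log2 change was 0.96 ± 0.25 (adjusted p = 0.0864). For mt-Tl1 they were 143, 58.8 and 166 FPKM against 60.1, 60.4 and 26.7 FPKM, with replicate 2 within the control range (log2 change 1.26 ± 0.41, adjusted p = 0.0966).

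In all, 1 of the 31 tested mitochondrial genes passed the threshold at 1.5 h, mt-Atp8, beside 0.555% of all tested genes (0.419% higher and 0.136% lower). That share corresponds to less than 1 gene in 31, and 11 of the 31 had an unadjusted p below 0.05, as did 5581 of all 17664 genes. The median log2 change of the 31 was 0.74, against 0.02 over all tested genes. These medians depended on the scaling: they were -0.04 and -0.02 with quantile normalization and 0.505 and -0.02 with a gene length correction. The 3 libraries of 1 group lay all above or all below those of the other for 5 members, or 16.1% of the 31, where 26.6% of all tested genes did so. Above the controls were mt-Atp6, mt-Atp8, mt-Rnr2 and mt-Tw, and below them was mt-Th. The count turned on replicate 2: without it, 14 of 31 passed, 13 higher and 1 lower, and 8071 of all 17664 genes did. With replicate 2 as the only 1.5 h library, the median log2 change of the 31 was -0.19, against 0.01 over all tested genes. The lone library was assumed to vary like the other groups in that fit, so its count of members is not given.

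**Figure D4:**
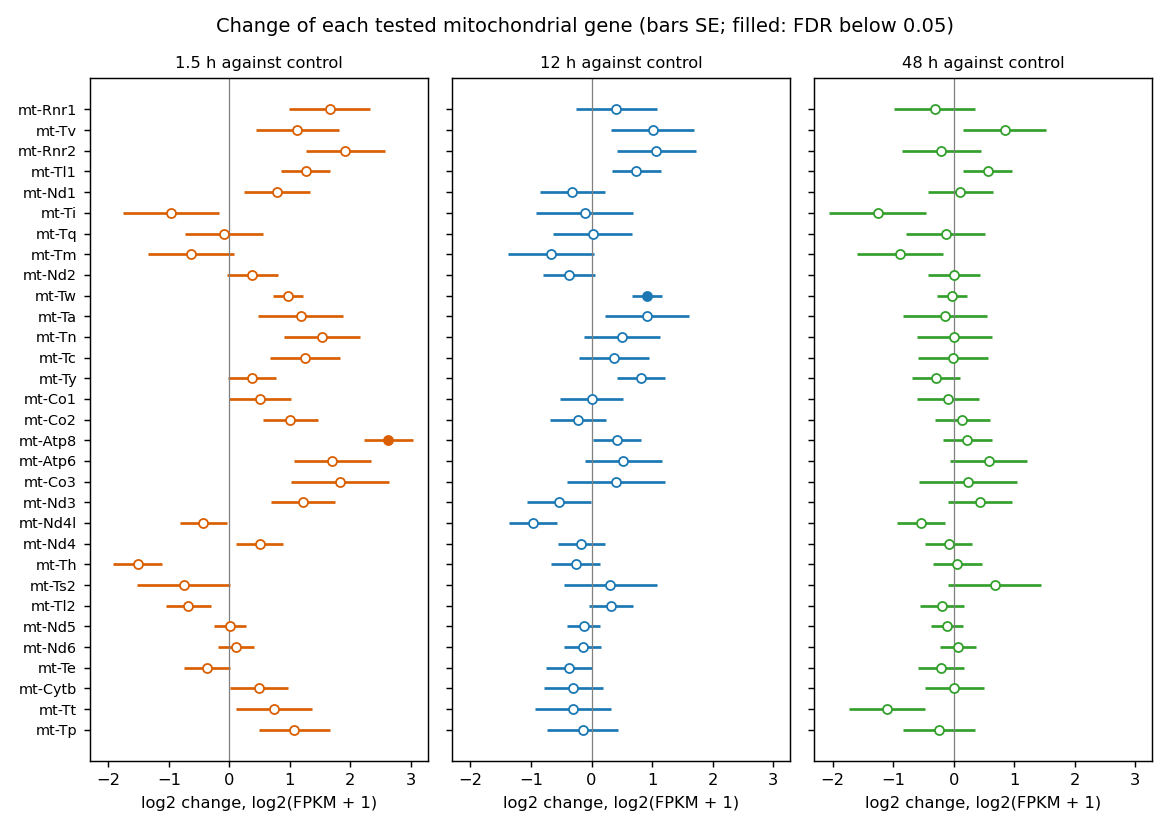
Log2 change, on the log2(FPKM + 1) scale, of the 31 tested mitochondrial genes in map order at 1.5 h, 12 h and 48 h against control; bars are the SE of the limma fit and filled points passed an FDR of 0.05. The filled points are mt-Atp8 at 1.5 h (2.62) and mt-Tw at 12 h (0.91).

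At 12 h the replicates lay close together and the mitochondrial genome took 4.66%, 4.96% and 5.29% of reads in replicates 1 and 2 and the unnumbered library, within the control range. Protein genes took 3.61%, 3.64% and 4.04%, also within it. The rRNA share was 1.03%, 1.30% and 1.23%, above all 3 controls. The member past the threshold was mt-Tw, the tryptophan tRNA shown above, at 57.5, 52.7 and 43.1 FPKM against 21.6, 28.8 and 29.9 FPKM in controls, or 46 to 58 reads against 25 to 35. Its log2 change was 0.91 ± 0.25 with an adjusted p of 0.0235 (limma). The change of mt-Tw was of like size at 1.5 h (0.96 ± 0.25, adjusted p = 0.0864), so its rise was not particular to 12 h. The call was lost without control replicate 1 or 2 (adjusted p = 0.098 and 0.055) and without 12 h replicate 1 or 2 (0.0829 and 0.0744), while the log2 change stayed at 0.77 to 0.97. It was also lost for mt-Tw when the trend with gene length was corrected (log2 change 0.77, adjusted p = 0.0905).

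The large-subunit rRNA was also without overlap at 12 h. Values of mt-Rnr2 were 4404, 5576 and 5197 FPKM, against 1930, 2617 and 2738 FPKM in controls, which is 1.81 to 2.30 times the control mean. Its log2 change of 1.07 ± 0.65 had an adjusted p of 0.287 in limma. With 1.5 h replicates 1 and 3 left out of the shared estimate of the spread, an alternative added after the data were seen, the same change had an adjusted p of 0.0289. For mt-Rnr1, values of 3996, 4719 and 4373 FPKM overlapped the controls at 3005, 4018 and 2900 FPKM by a narrow margin, and its log2 change was 0.41 ± 0.67 (adjusted p = 0.723). The tyrosine tRNA mt-Ty, at 53.6, 71.2 and 45.9 FPKM against 27.6, 44.8 and 24.8 FPKM, had a log2 change of 0.82 ± 0.39 (adjusted p = 0.173) and 0.0453 with those 2 libraries left out of the spread. In that fit 3 members passed (mt-Tw, mt-Rnr2 and mt-Ty), and 6211 of all 17664 genes did.

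Among the abundant protein genes, mt-Co1 and mt-Cytb lay within the control range at 12 h. For mt-Co1, values of 10945, 10631 and 11129 FPKM were within the controls and the log2 change was 0.00 ± 0.52 (limma adjusted p = 1). For mt-Cytb, 5675, 5346 and 5909 FPKM were between the lowest control and the others, with a log2 change of -0.30 ± 0.49 (adjusted p = 0.718). The level listed for mt-Nd4l, a small membrane subunit of complex I, was 13.0, 16.1 and 35.5 FPKM against 71.8, 30.1 and 27.9 FPKM, with a log2 change of -0.97 ± 0.39 (adjusted p = 0.108). The level of mt-Nd4l was below all controls in 12 h replicates 1 and 2 and within their range in the unnumbered library. Without that library the log2 change was -1.39 (adjusted p = 0.0303). The level listed for mt-Co3 was 36.2, 216 and 41.2 FPKM against 54.4, 82.6 and 31.1 FPKM, with replicate 2 above all controls and the others within their range (log2 change 0.40 ± 0.81, adjusted p = 0.783). The ATP synthase gene mt-Atp8 was at 2.61, 4.86 and 3.69 FPKM, of which 1 value was within and the others were above the control range.

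Ratios between genes of the same library do not depend on how libraries were scaled. The ratio of mt-Rnr2 to mt-Rnr1 in FPKM was 1.102, 1.18 and 1.19 at 12 h, above all other libraries: 0.642, 0.651 and 0.944 in controls, 0.998, 1.04 and 0.647 at 1.5 h, and 0.824, 0.807 and 0.748 at 48 h. The ratio of mt-Co1 to mt-Cytb was 1.93, 1.99 and 1.88 at 12 h, again above all others, which ran from 1.43 to 1.69. As a share of the summed FPKM of the 7 protein genes without a near-complete nuclear copy, mt-Co1 took 34.9% to 37.02% at 12 h and 29.3% to 32.6% elsewhere. Since mt-Co1 shares 51.1% of its windows with nuclear transcripts, its ratio can also move with reads given to copies. The ratio of rRNA reads to protein gene reads was 0.285, 0.359 and 0.306 at 12 h, above the controls at 0.1198, 0.159 and 0.225. At 1.5 h that ratio was 0.804, 0.251 and 0.315, above the controls in all 3 libraries, replicate 2 included. These ratios were described without a test, since the genes were chosen with earlier results known.

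**Figure D5:**
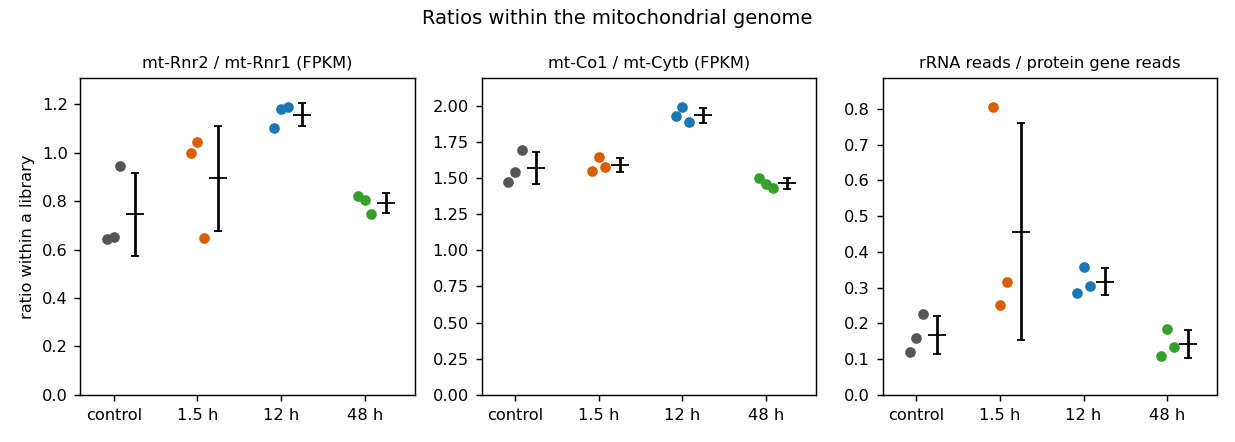
Within-library ratios in the 4 groups: mt-Rnr2 to mt-Rnr1 (FPKM), mt-Co1 to mt-Cytb (FPKM) and rRNA reads to protein gene reads. Points are libraries, dashes and bars are means and SD of 3. The 12 h points are above all others for mt-Rnr2 to mt-Rnr1 (1.102 to 1.19) and mt-Co1 to mt-Cytb (1.88 to 1.99).

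Of the 31 tested members, 1 passed the threshold at 12 h against control (mt-Tw, higher), where 21.2% of all tested genes did (13.3% higher and 7.90% lower). Groups did not overlap for 6 members, all of them higher at 12 h (mt-Rnr2, mt-Tc, mt-Tl1, mt-Tn, mt-Tw and mt-Ty, 19.4%), beside 54.4% of all tested genes. In limma 2 members had an unadjusted p below 0.05, as had 5964 of all 17664 genes. The median log2 change was 0.00 in the members and 0.00 over all tested genes. Both counts of members were below the shares of all tested genes.

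At 48 h the total share of reads from the mitochondrial genome was close to control. This share was 4.60%, 6.14% and 5.18% in replicates 1, 3 and 4, against 4.16% to 6.02% in controls. Values of mt-Rnr2 were 1417, 3250 and 1967 FPKM and those of mt-Rnr1 were 1721, 4027 and 2629 FPKM, each straddling the controls. The tryptophan tRNA mt-Tw was at 23.9, 27.7 and 26.2 FPKM, within the control range. Among protein genes, mt-Co1 at 8768, 12055 and 10117 FPKM and mt-Nd5 at 1761, 1727 and 1780 FPKM were within it too. The rRNA share was 0.448%, 0.951% and 0.605% in replicates 1, 3 and 4, against 0.616% to 0.823% in controls. Replicates 1 and 4 were thus below all controls and replicate 3 was above them. The tRNA share was 0.0104%, 0.0178% and 0.0128%, against 0.0124% to 0.0151%, with replicate 1 below and replicate 3 above all controls.

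No member passed the threshold at 48 h (0 of 31, against 12.5% of all tested genes, 7.50% higher and 5.01% lower), and limma gave 0 with an unadjusted p below 0.05, where 4688 of all 17664 genes had one. Fitted on these 2 groups alone, 3789 of all 17664 genes passed and among the members 1 did, mt-Ts2 (serine), at 15.4, 13.0 and 11.7 FPKM against 5.87, 8.64 and 9.69 FPKM, with a log2 change of 0.68 and an adjusted p of 0.045. It was above all controls in every library, while mt-Ti (isoleucine) and mt-Tt (threonine) were below them, so that 3 members (9.68%) did not overlap, beside 43.0% of all tested genes. All 3 rested on few reads. For mt-Ts2 these were 13 to 17 at 48 h against 6 to 10 in controls, and for mt-Ti 2 to 6 against 7 to 16. For mt-Tt they were 0 to 1 against 1 to 3, so its groups were separated only by the scaling of the libraries. The median log2 change of the 31 was -0.03. Intervals around single changes stayed wide, with an SE of 0.65 for mt-Rnr2 and 0.27 for mt-Nd5, so a miss of the threshold does not show equal levels.

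Between treated times, 3 members changed from 1.5 h to 12 h, 1 up and 2 down, beside 33.2% of all tested genes (16.9% up and 16.3% down). The values of mt-Atp8 given above fell by 2.20 ± 0.40 on the log2 scale (limma adjusted p = 0.00286), which held without any 1 library (0.0002 to 0.0144). The complex I gene mt-Nd3 was listed at 38.6, 7.74 and 27.9 FPKM at 1.5 h and 3.82, 5.70 and 7.04 FPKM at 12 h, and fell by 1.76 ± 0.53 (adjusted p = 0.0279). It rested on 44 to 163 reads at 1.5 h and 20 to 39 at 12 h. In the same libraries its copy Gm28438 was listed at 399, 67.4 and 240 FPKM and at 77.1, 79.7 and 92.5 FPKM. The histidine tRNA mt-Th rose by 1.26 ± 0.40 (adjusted p = 0.0349), from the values above to 10.9, 12.9 and 9.37 FPKM. For mt-Nd3 the call was lost without 1.5 h replicate 1 or 3 (adjusted p = 0.105 and 0.097) or any 12 h library (0.0506 to 0.0921), and for mt-Th without 1.5 h replicate 1 or 2 (0.0906 and 0.0714) or any 12 h library (0.0639 to 0.102). Groups did not overlap for mt-Atp8, mt-Nd3, mt-Th and mt-Tl2 (12.9%, beside 41.5% of all tested genes). Without 1.5 h replicate 2, 16 members passed, as did 9667 of all 17664 genes. The median log2 change of the 31 was -0.54, against 0.00 over all tested genes. With quantile normalization these medians were -0.03 and -0.04, and with the gene length correction -0.54 and -0.04.

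From 12 h to 48 h, 1 member changed, beside 15.6% of all tested genes (5.88% up and 9.73% down): mt-Tw fell by 0.94 ± 0.25 (limma adjusted p = 0.0256). The call was lost without 12 h replicate 1 or 2 (adjusted p = 0.0937 and 0.0834) or any 48 h library (0.0609 to 0.0693). Every 48 h library was below every 12 h library for mt-Tw, mt-Rnr2 and mt-Ty and above it for mt-Nd2 and mt-Nd3, in all 16.1% of the 31, beside 43.6% of all tested genes. With 1.5 h replicates 1 and 3 left out of the spread, mt-Tw, mt-Rnr2 and mt-Ty passed, with adjusted p of 0.00169, 0.0161 and 0.0153, among 5405 of all 17664 genes.

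From 1.5 h to 48 h, 4 members changed, beside 17.8% of all tested genes (8.91% up and 8.87% down). These were mt-Atp8 (-2.40 ± 0.40, limma adjusted p = 0.00279), mt-Rnr2 (-2.12 ± 0.65, 0.0464), mt-Tw (-0.99 ± 0.25, 0.0198) and mt-Th (1.57 ± 0.40, 0.0221). In 48 h replicates 1, 3 and 4, mt-Atp8 was at 4.19, 1.87 and 3.39 FPKM and mt-Th at 10.4, 13.0 and 19.9 FPKM, each without overlap with 1.5 h, as were 6 members in all (19.4%, beside 27.9% of all tested genes). The call of mt-Rnr2 was lost without any 1 library of either group (adjusted p = 0.0522 to 0.141) except 1.5 h replicate 2. That of mt-Tw was lost without 1.5 h replicate 1 or 3 (0.0652 and 0.0796) or 48 h replicate 1 or 4 (0.0676 and 0.0556), and that of mt-Th without 1.5 h replicate 1 (0.0597) or 48 h replicate 4 (0.0834). Without 1.5 h replicate 2, 18 members passed, and so did 7812 of all 17664 genes. The 3 times were each compared with the others on the same libraries, so these comparisons share samples. In the test for any difference between the 4 groups, 3 members passed (mt-Atp8, mt-Tw and mt-Th), beside 38.4% of all tested genes.

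Nuclear genes that make, process or use mitochondrial RNA were counted by list. Of 17 tested genes of mitochondrial transcription and DNA replication, none rose at any time and 1 fell at 12 h, Tfb1m, an rRNA dimethylase of mitochondria, from 1.63 ± 0.293 to 0.812 ± 0.261 FPKM (log2 change -0.54 ± 0.13, limma adjusted p = 0.0144). Of 21 RNA processing and turnover genes, 1 rose at 12 h, Tbrg4, a FASTK-family protein (0.58 ± 0.11, adjusted p = 0.00305), and 1 at 48 h, Rexo2, which degrades very short RNAs (0.62 ± 0.16, adjusted p = 0.0229). Of 14 rRNA and tRNA modification genes, Mrm1, an rRNA methylase, rose at 1.5 h (0.64 ± 0.11, adjusted p = 0.031). At 12 h Trit1, which adds an isopentenyl group to tRNAs, rose from 5.93 ± 0.300 to 12.5 ± 0.696 FPKM (0.97 ± 0.10, adjusted p = 0.00011), and Mrm2, a methylase of the large-subunit rRNA, fell from 5.80 ± 0.525 to 3.14 ± 1.12 FPKM (-0.76 ± 0.24, adjusted p = 0.0422). These counts stood beside 0.555%, 21.2% and 12.5% of all tested genes at 1.5 h, 12 h and 48 h.

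Of the 17 synthetases that charge mitochondrial tRNAs, 1 rose and 4 fell at 12 h, when 13.3% of all tested genes rose and 7.90% fell. Lars2, for leucine, rose from 8.06 ± 1.41 to 14.7 ± 2.22 FPKM (0.79 ± 0.23, limma adjusted p = 0.0284), while Hars2, for histidine, fell by 0.63 ± 0.10 (adjusted p = 0.00093). At 48 h 7.50% of all tested genes rose and 5.01% fell, and 1 synthetase fell, Vars2, for valine (-0.52 ± 0.12, adjusted p = 0.0183). Among 77 mitochondrial ribosomal protein genes, the 1 that rose at 12 h and at 48 h was Mrps6, from 8.42 ± 1.28 to 16.1 ± 0.816 and 28.9 ± 1.53 FPKM. Of 12 protein quality control genes, 5 rose at 12 h (13.3% of all tested genes did), among them the chaperonin pair Hspd1 (55.9 ± 3.48 to 145 ± 15.1 FPKM) and Hspe1 (37.6 ± 1.23 to 165 ± 19.9 FPKM). Of 10 biogenesis regulators, Nrf1, a transcription factor for nuclear genes of mitochondria, rose at 12 h (0.62 ± 0.09, adjusted p = 0.000924). The median log2 changes of these lists ran from -0.28 for the synthetases to 0.23 for the biogenesis regulators at 12 h, against 0.00 over all tested genes.

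Nuclear subunits of the respiratory chain and ATP synthase could be set beside the mitochondrial ones. Of 88 tested, 1 rose at 1.5 h, Cox7a1, a complex IV subunit, from 1.39 ± 0.173 to 5.64 ± 2.72 FPKM (log2 change 1.38 ± 0.26, limma adjusted p = 0.0494), and it also rose at 48 h (1.02 ± 0.26, adjusted p = 0.0277). Among all tested genes 0.419% rose at 1.5 h and 7.50% at 48 h. At 12 h 1 rose and 1 fell, the latter Ndufa4l2 (-0.73 ± 0.21, adjusted p = 0.034), beside 13.3% and 7.90% of all tested genes. The median log2 change of the 88 subunits at 1.5 h was 1.13, and by library the median log2 level relative to the control mean was 2.08, 0.0362 and 1.36 in replicates 1, 2 and 3. For the 7 mitochondrial protein genes without a near-complete copy, the same medians were 1.01, -0.345 and 0.711. The nuclear subunits and the mitochondrial protein genes were thus high in the same 2 libraries, where the levels of longer genes were also lower than those of shorter ones. For 77 mitochondrial ribosomal protein genes, those medians were 1.45, -0.0152 and 0.939. The 6 nuclear copies of mitochondrial DNA on the list had 1.83, -0.243 and 1.17, and none of them passed the threshold at any time against control. From 1.5 h to 12 h 1 of the 6 copies fell, beside 16.3% of all tested genes. Of 6 tested RNAs retained in the nucleus, Rn7sk, the RNA of the 7SK particle, rose at 1.5 h and 12 h (log2 change 4.96 ± 0.60 and 3.90 ± 0.60), Neat1 rose at 12 h and 48 h (2.34 ± 0.31 and 1.76 ± 0.31) and Miat fell at 48 h (-1.27 ± 0.31), each with a limma adjusted p of 0.0214 or less. Of all tested genes 0.555%, 21.2% and 12.5% passed at 1.5 h, 12 h and 48 h.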

How the data were processed

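RNA from 12 mouse brain libraries in 4 groups was sequenced, and a single deposited table gave 12 columns of FPKM values made by the authors. Per the submitters' processing notes, Bowtie 0.12.2 and mouse build mm8 were used. The counting tool, strand setting and annotation are not given in the sources used here. Of the 54532 gene identifiers, 54409 were in GENCODE M21, and 98.33% of them had the same start and end there, so positions are given as GRCm38. One 12 h column carries a number that no title of its group has and is called the unnumbered 12 h library.

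The product of FPKM and gene length came in whole steps for 100% of values, within 0.05 of a step, and counting those steps gave 15348579 to 17444654 recovered reads per library. The totals behind the deposited FPKM matched size factors (median of ratios, 18170 genes), so the authors' scaling was kept. Precision for the scarce tRNAs is limited by counts below 10 reads. Log2(FPKM + 1) was fitted in limma 3.58.1 (R 4.3.3) as 1 model of all 12 libraries with a mean-variance trend (8 residual and 3.09 prior degrees of freedom). Genes above 0.5 FPKM in at least 3 libraries were tested, 17664 in all, with Benjamini-Hochberg adjustment and a threshold of 0.05. Fold changes on this scale understate those of low genes. The fit was tested on simulated data. Sequences were compared in Biopython 1.88 by shared windows of 50 or 25 bases and by alignment.

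Every member was counted, though not every value is printed. No values are given for mt-Tq, mt-Ta and mt-Tv, and none of these passed the threshold in the fit of all 12 libraries. From each other list, per time against control, the 2 rising and 2 falling genes with the smallest p past the threshold and a mean of at least 1 FPKM were named. One gene that this rule names is not reported here. The members and lists were chosen with earlier results of these data known. The alternatives were the pseudocount, the filter, the scaling, quantile normalization, a gene length correction, limma-voom on recovered reads, the groups fitted, a replicate block and leaving out libraries. Within groups, Pearson correlations across genes were 0.919 to 0.987 (12 pairs).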

Additional observations from a re-analysis of the deposited data

Results flagged for a closer look

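Some changes from control differed between times, in limma with Benjamini-Hochberg adjustment. The control cancels in such a difference, so these are the comparisons between times given above and not a further test. Against 1.5 h, the change from control was lower at 12 h for mt-Atp8 (log2 difference -2.20) and mt-Nd3 (-1.76) and higher for mt-Th (1.26). At 48 h it was lower than at 1.5 h for mt-Atp8 (-2.40), mt-Rnr2 (-2.12) and mt-Tw (-0.99) and higher for mt-Th (1.57), and lower than at 12 h for mt-Tw (-0.94). Of these, mt-Th rested on 2 to 8 reads per library at 1.5 h and mt-Atp8 on 36 to 117. As given above, the calls of mt-Nd3, mt-Rnr2, mt-Tw and mt-Th were each lost when some single libraries were left out.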

How the results depend on the processing

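The number of members past the threshold moved with the libraries used. With each library left out in turn, the comparisons with control gave 0 to 14 members at 1.5 h, 0 to 2 at 12 h and 0 throughout at 48 h. Of all 17664 genes, 11 to 8071, 2293 to 2715 and 1206 to 1788 passed in these fits. The comparisons between times gave 1 to 16 members (12 h and 1.5 h), 0 to 1 (48 h and 12 h) and 1 to 18 (48 h and 1.5 h). Of all 17664 genes, 3408 to 9667, 1614 to 2651 and 1877 to 7812 passed there. With neither 1.5 h replicate 1 nor 3, the log2 change of mt-Tm turned from -0.03 to 1.95 between 1.5 h and 12 h. The 1.5 h group was then replicate 2 alone, with 2 reads for mt-Tm against 9 to 13 at 12 h. Fitting only the groups compared gave 0, 5 and 1 members against control (1.5 h, 12 h, 48 h), beside 5, 7279 and 3789 of all 17664 genes. Between times (12 h and 1.5 h, 48 h and 12 h, 48 h and 1.5 h) it gave 2, 3 and 0 members, beside 2384, 3991 and 559 of all genes. In the same order, limma-voom on recovered reads gave 0, 0, 0, 3, 0 and 5, beside 49, 3760, 2397, 5738, 2767 and 3214 of all 17664 genes. No filter on low values gave 0, 1, 0, 1, 1 and 3, beside 27, 4183, 1947, 5586, 3268 and 2606 of 34310 genes. Quantile normalization gave 1, 1, 0, 4, 3 and 5, beside 90, 4606, 2685, 5851, 3416 and 2915 of all genes. It turned mt-Nd6 from -0.03 to 0.90 between 1.5 h and 48 h. The length correction gave 1, 1, 0, 2, 0 and 5, beside 105, 4676, 2747, 6344, 3358 and 3735 of all genes. Its member at 12 h was mt-Nd4l, which was lower (-1.12, limma adjusted p = 0.0454), in place of mt-Tw. With 1.5 h replicates 1 and 3 left out of the spread only, which was added after the data were seen, 3 members passed at 12 h against control and 3 between 12 h and 48 h, beside 6211 and 5405 of all 17664 genes. The cause of these moves was not tested.

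Same-numbered libraries of different groups did not deviate together: 11 pairs had correlations of -0.264 to 0.156 across genes. With the replicate number as a block, 0 members passed in each comparison except that of 48 h with 1.5 h, where 1 did. In those comparisons 4 to 1321 of all 17664 genes passed, and 866 did for 48 h with 1.5 h. As shares of summed FPKM instead of reads, protein genes took 12.7%, 12.2%, 10.1% and 12.1%, rRNAs 2.08%, 5.52%, 3.11% and 1.71%, and tRNAs 0.708%, 1.18%, 0.710% and 0.637% on average in control, 1.5 h, 12 h and 48 h, since short genes weigh more in FPKM. With reads outside chromosome MT as the denominator the tRNA share at 12 h was 0.0150%. Array weights were not run because their estimation did not converge.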
